A study of Rattus norvegicus with 47 samples.

Results

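The 10 genes described here, Avpr1a, Lifr, Rab38, Rab30, Rpp21, Adss1, Eci3, Oaf, Car2 and Stac3, were chosen by their RNA levels in rat liver on these arrays, which differed with the amount of retinol in the diet. They are 10 of the 14217 genes that the array names, and each was followed over all 47 arrays, 1 rat liver per array. Where a gene had several probe sets (groups of short probes that report on 1 transcript), the one with the highest mean was used. All values are log2 signals relative to the median of their own array, so that a difference of 1 is a doubling. The level of one gene was not set against that of another, because probe sets differ in brightness.

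Retinol is a form of vitamin A, and liver cells oxidise part of it to all-trans-retinoic acid (RA). RA binds nuclear receptors that sit on DNA as pairs and switch on genes such as Cyp26a1, which encodes the enzyme that clears RA, and Rarb, which encodes an RA receptor. The genes described here are less known as readers of vitamin A. They encode cell surface receptors, small GTPases of vesicle traffic, enzymes, a subunit of a transfer RNA processing complex, a secreted protein and a muscle adaptor protein.

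All rats were female Sprague-Dawley rats studied at 8 weeks of age, and the design held 13 groups in 3 experiments. In the diet experiment the pups of dams on a purified diet without vitamin A were fed from weaning 0 mg retinol per kg diet (deficient, n = 5), 0.4 mg (marginal, n = 7), 4 mg (adequate, n = 6) or 100 mg (supplemented, n = 2). In the RA time course, vitamin A-deficient rats raised in the same way received about 100 µg RA and were killed after 3 h (n = 3), 6 h (n = 3), 10 h (n = 4) or 16 h (n = 3), or received vehicle and were taken at 0 h (n = 3). In the intravenous experiment, rats on a stock diet had their food removed, were anaesthetised with isoflurane 16 h after priming with oil vehicle and were given about 25 µg RA bound to albumin into the iliac vein. They were killed after 30, 60 or 90 min (n = 3 each), and the vehicle group was taken at 0 min (n = 2). Sample titles call the controls of both RA experiments untreated, while the design text gives them vehicle, and they are called vehicle here. Neither RA experiment has a vehicle group at the later times, so RA and the time since dosing cannot be told apart.

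In whole liver, fewer cells of a type and less RNA per cell cannot be told apart. The 9 hepatocyte markers on the array had a summed log2 level between 10.97 and 13.19 relative to the array median on every array. All 10 genes lay above the lowest signal of their array on every array and passed the filter on low values in all 3 experiments. Stac3 was dim in several groups, so its differences rest in part on low signals. Its median percentile on the array was 33.0 in deficient and 72.8 in adequate rats, 21.9 at 6 h and 16.7 at 10 h. Several time course arrays stood apart. Vehicle replicate 2 did so in some RA targets. Its Cyp2c22 signal, a cytochrome P450 that rises with RA, was 7.11, against 2.54 and 2.83 in the other vehicle rats and 6.45 to 7.21 in the rats on adequate diet. Its Lrat signal, the enzyme that stores retinol as esters, was 2.62 against -0.39 and -4.18. Cyp26a1 did not stand apart there, at -1.14 against -0.89 and -4.73. Rarb was highest in that rat, at 4.32 against 3.25 and 3.52. So was Dhrs3, a reductase of retinal, at 4.445 against 3.46 and 4.17. Of the 10 genes, 9 had their highest vehicle value in that rat and Rab30 its lowest, where 45.7% of the 13636 genes tested were highest there. For Oaf (4.583 against 4.582) and Car2 (1.466 against 1.447) vehicle replicate 3 was nearly as high. Vehicle replicate 1 had the widest gap between the GAPDH 3' and 5' control probes, a sign of RNA quality, at 0.947 against 0.344 to 0.778 on the other time course arrays. It held the lowest vehicle value for 7 of the 10 genes, where 59.8% of all genes were lowest there, and the part of RNA quality in the RA differences was not tested. At 16 h, replicates 1 and 2 correlated least with the other arrays of the time course, at a mean r of 0.674 and 0.719, against 0.762 to 0.804 for the rest. In the diet experiment, adequate replicate 5 had the widest GAPDH gap of all arrays, at 1.37, and deficient replicate 5 had 0.922. The part of RNA quality in the diet differences was not tested.

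The promoter of Adss1 is shown because this gene rose after RA and holds receptor hexamers. That of Rpp21 is shown because it was called at more times than any other of the 10 genes in the values as deposited and holds none. That of the known RA target Cyp26a1 is shown for comparison. Each run is the 250 bases before the start site in the RefSeq annotation of GRCr8, plus strand, at chr6:137500299-137500548, chr20:2023128-2023377 and chr1:244883572-244883821. Capitals mark the receptor hexamers AGGTCA, or GGGTCA, or AGTTCA, or GGTTCA, on either strand.
Adss1: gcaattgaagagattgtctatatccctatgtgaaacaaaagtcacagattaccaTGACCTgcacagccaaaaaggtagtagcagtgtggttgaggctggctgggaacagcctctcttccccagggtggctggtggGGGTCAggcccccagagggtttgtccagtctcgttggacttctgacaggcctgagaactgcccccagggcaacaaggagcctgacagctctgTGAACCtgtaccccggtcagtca
Rpp21: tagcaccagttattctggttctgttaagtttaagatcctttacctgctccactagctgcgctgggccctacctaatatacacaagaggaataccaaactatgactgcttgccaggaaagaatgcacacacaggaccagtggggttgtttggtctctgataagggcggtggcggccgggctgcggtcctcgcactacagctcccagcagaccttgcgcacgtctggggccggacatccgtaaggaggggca
Cyp26a1: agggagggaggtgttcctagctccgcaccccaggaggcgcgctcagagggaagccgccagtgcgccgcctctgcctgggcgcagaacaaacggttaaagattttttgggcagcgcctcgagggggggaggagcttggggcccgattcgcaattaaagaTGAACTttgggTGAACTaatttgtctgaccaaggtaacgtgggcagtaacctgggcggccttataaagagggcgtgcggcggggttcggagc

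In Cyp26a1 the hexamers form a direct repeat with a spacer of 5 bases, read on the opposite strand from 92 to 76 bases before the start as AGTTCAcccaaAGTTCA. The window of Rarb holds one of the same spacing just after its start, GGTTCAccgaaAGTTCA. Promoter windows of 300 bases (250 before to 50 after the start) were given for 8 of the 10 genes, all but Rab38 and Car2, in 10 windows. Hexamers occurred in 4 of these windows, belonging to Stac3, Adss1 (both windows) and Rab30 (one of its windows), while 44.4% of all 33469 promoter windows of that length held one. Direct repeats of these hexamers with spacers of 1, 2 or 5 bases occurred in 0 of the 10 windows, against 0.233%, 0.17% and 0.382% of all windows. Matches within so short a window describe its letters, and say nothing of sites elsewhere.

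Across diets, 9 of the 10 genes were lower in deficient than in adequate liver and Rab30 was higher. These differences chose the genes, so they are given as a description with no test, as fitted differences ± SE with the run of the submitters' database identifiers (12 arrays in run 1, 8 in run 2) as a covariate. Both supplemented rats were in run 1, with 2 of the 5 deficient rats. Supplemented minus deficient differences therefore lean on the covariate. For Lifr the difference was 3.73 as fitted, 2.21 without the covariate and 4.78 in run 1 alone. The marginal rats sat near the adequate rats for all 10 genes, with differences between -0.33 and 0.17. Supplemented minus adequate differences ranged from -0.73 for Rab30 to 1.10 for Stac3. For 7 of the 10 the deficient and adequate rats did not overlap, beside 1.06% of all probe sets. The median of the 10 was -2.05 for deficient minus adequate, beside -0.16 over all 13292 genes in that fit.

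Among the receptors, Avpr1a, the V1a vasopressin receptor through which the hormone raises calcium and glycogen breakdown in hepatocytes, read 2.96, 2.93, 3.48, 4.95 and 4.01 in the deficient rats and 4.63 to 5.85 (median 5.24) in the adequate rats. Its deficient minus adequate difference was -1.30 ± 0.19, and 1 deficient rat lay within the adequate range. Lifr, the receptor subunit that binds leukaemia inhibitory factor and signals together with gp130, read 1.63, 1.63, 2.40, -3.37 and -1.43 in the deficient rats and 0.46 to 3.47 (median 2.49) in the adequate rats. The raw groups overlapped, and Lifr moved with the run as well as with the diet: the difference was -3.89 ± 0.70 in run 1 and -1.58 ± 0.32 in run 2. Whether the run has a part in the Lifr difference was not tested beyond these values.

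The small GTPases went opposite ways. Rab38, which directs cargo to melanosomes and other lysosome-related organelles, read 0.90, 1.12, 0.61, 1.84 and 0.57 in the deficient rats and 2.69 to 3.49 (median 2.92) in the adequate rats, with no overlap, a difference of -1.96 ± 0.23. Rab30, a GTPase of the Golgi, read 3.85, 3.87, 4.40, 4.36 and 4.33 in the deficient rats, above the adequate range of 0.39 to 2.90 (median 2.86), and 0.92 and 1.77 in the supplemented rats. Rab30 was the single gene of the 10 that fell as retinol rose, by 2.54 ± 0.47 from deficient to supplemented diet.

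Rpp21, a protein subunit of RNase P, which trims the leader from precursor transfer RNA, had the smallest error for its size: 2.82, 2.88, 3.19, 3.64 and 3.58 in deficient rats against 5.16 to 5.99 (median 5.36) in adequate rats, a difference of -2.18 ± 0.18. Adss1, adenylosuccinate synthase 1, which commits inosine monophosphate to AMP, read -1.14, 0.28, 0.26, 1.09 and -1.44 in deficient rats against 1.62 to 2.48 (median 1.94) in adequate rats, a difference of -2.14 ± 0.33. Both genes had groups without overlap. A second Adss1 probe set did not follow the diet, with a difference of 0.13 ± 0.37, and correlated with the chosen one at r = 0.44 over the 47 arrays. Every Adss1 value here therefore rests on 1 of 2 probe sets that disagree.

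Eci3, an enoyl-CoA isomerase that prepares unsaturated fatty acids for oxidation, read 4.96, 5.31, 5.95, 6.21 and 6.11 in deficient rats and 6.72 to 7.44 (median 6.85) in adequate rats. Oaf, a secreted protein of little known function, read 3.79, 4.11, 4.38, 4.71 and 4.58 against 5.29 to 5.78 (median 5.61). Neither gene's groups overlapped, with differences of -1.14 ± 0.20 for Eci3 and -1.22 ± 0.19 for Oaf. Another probe set is assigned to both Eci3 and its relative Eci2, so signal of the pair cannot be told apart with certainty in the one used.

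Car2, carbonic anhydrase 2 of the cytosol, which interconverts carbon dioxide and bicarbonate, read -1.57, -2.02, -0.36, 1.82 and 0.73 in deficient rats against 1.85 to 3.28 (median 2.58). The groups met without overlap. The 3 lowest of the deficient rats were all in run 2, and the difference was -1.38 ± 0.38 in run 1 and -3.74 ± 0.47 in run 2. Stac3, an adaptor that couples the calcium channels of skeletal muscle, read -0.99, 0.37, -1.79, -4.37 and -0.36 against 0.14 to 2.68 (median 1.47), and 2.37 and 2.01 in the supplemented rats. One deficient rat lay within the adequate range. At -3.13 ± 0.51 for deficient minus adequate, Stac3 had the largest difference of the 10, and also the largest standard error. Its deficient rats read low on the array, at a median percentile of 33.0.

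Muscle is a known site of Stac3 and red blood cells of Car2, and markers of both were read beside them. The summed skeletal muscle markers (12 genes) ranged from 5.98 to 7.10 in the deficient and from 6.28 to 7.12 in the adequate rats. That sum was carried by Myh1, with a mean of 6.47 over all arrays, while the other 11 genes lay below their array's median on average. Erythroid markers (8 genes), carried by Hbb at a mean of 6.95, ranged from 5.71 to 7.74 in the deficient and from 6.51 to 7.67 in the adequate rats. For both lists the ranges overlapped, and the deficient rats reached lower than any adequate rat (5.98 against 6.28 and 5.71 against 6.51). The part of muscle and blood in the Stac3 and Car2 values was not tested.

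**Figure D1:**
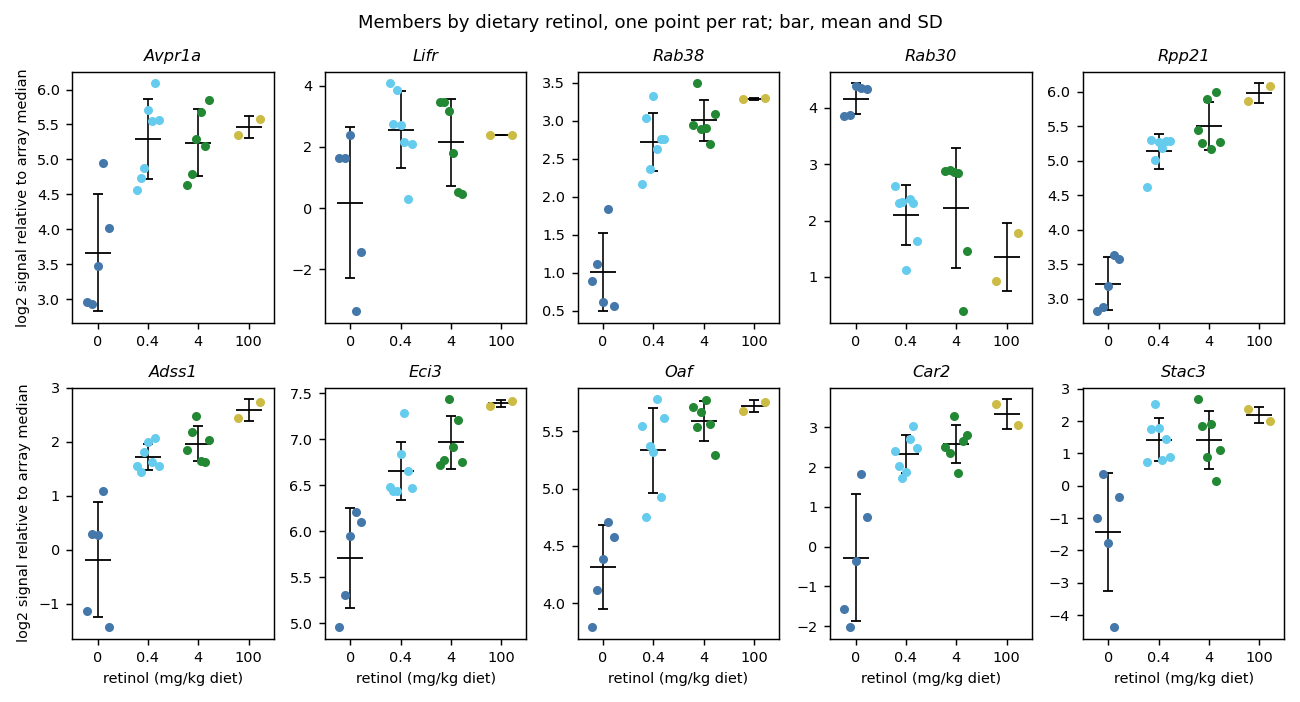
Levels of the 10 genes (y, log2 signal relative to the array median) against dietary retinol (x, mg per kg diet), 1 point per rat with the group mean and SD. Deficient rats (0 mg) are lowest for 9 genes by mean and highest for Rab30, and marginal and adequate rats lie at like levels.

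After RA in deficient rats, 8 of the 10 genes were called against vehicle at one time or more, and the times of the calls differed. Avpr1a was called at 3 h, Lifr, Oaf and Rpp21 at 6 h, Adss1, Avpr1a, Eci3, Rab38 and Rpp21 at 10 h, and Adss1, Eci3, Rpp21 and Rab30 at 16 h. All 13 of these called differences had the sign of the supplemented minus deficient diet difference. They come from 8 genes set against 1 shared vehicle group, and that diet difference was above 0 for 9 of the 10. How often calls over all probe sets carry their diet sign was not computed. Car2 and Stac3 were called at no time. A call here is an adjusted p under 0.05 from limma (a linear model over all probe sets, with Benjamini-Hochberg adjustment over the 28869 tested). The RA arrays came from other rats than those that chose the genes. The choice was nonetheless made with earlier results of these data known, so the RA calls are no independent test of it. The RA targets moved on the same arrays: Cyp26a1 by 6.30 ± 0.94, 8.67 ± 0.94 and 6.29 ± 0.88 at 3, 6 and 10 h, Rarb by 1.78 ± 0.29 at 3 h and Dhrs3, a reductase that returns retinal to retinol, by 1.59 ± 0.25.

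**Figure D2:**
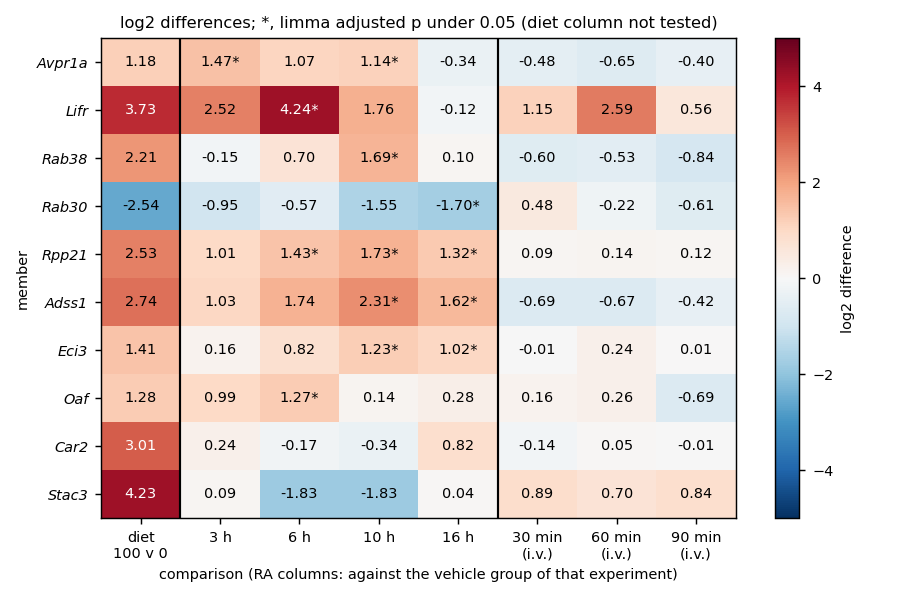
Fitted log2 differences of the 10 genes, 1 gene per line, with supplemented minus deficient diet in the first column, RA minus vehicle at 3 to 16 h in the next and intravenous RA minus vehicle at 30 to 90 min in the last. Stars mark an adjusted p under 0.05 by limma: there are 13 in the time course and 0 in the intravenous columns, and the diet column was not tested.

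Counted by time, 1 of the 10 was called at 3 h, where 0.0762% of all probe sets were called, 3 at 6 h (0.201%), 5 at 10 h (0.488%) and 4 at 16 h (6.11%). At 16 h the direction matters: 3 of the 10 rose, where 0.222% of all probe sets rose, and 1 fell, where 5.89% fell. The median difference of the 10 genes was 0.62 at 3 h, 0.95 at 6 h, 1.19 at 10 h and 0.19 at 16 h, beside 0.03, -0.10, -0.23 and -0.49 over all 13636 genes tested. The vehicle and RA rats did not overlap for 4 of the 10 genes at 3 h, 5 at 6 h, 6 at 10 h and 3 at 16 h, where 9.68%, 11% (3178 of 28869), 9.92% and 17.8% of all probe sets did not. By an F test over the RA times, 8 of the 10 were called, where 4.79% of all were. With the mean of all RA times against vehicle, Rpp21 (1.37 ± 0.23, adjusted p = 0.00278) and Adss1 (1.67 ± 0.36, adjusted p = 0.0367) were called by limma, where 0.170% of all were.

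The split of calls over all probe sets turned on the scaling of the arrays. As deposited, 31 rose and 110 fell at 10 h and 64 rose and 1701 fell at 16 h, and after quantile normalization 169 rose and 126 fell at 10 h and 112 rose and 213 fell at 16 h. For all RA times the split went from 24 higher and 25 lower to 97 and 39, and for 16 h against 3 h from 86 and 2427 to 97 and 263. Calls of the 10 genes and of the gene lists are given as deposited, with those gained or lost after quantile normalization beside them. Of the 10 genes, Rpp21, Eci3 and Adss1 were called at 16 h under both scalings.

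These calls rest on limma's variance model. With eBayes run without its intensity trend, 0 of the 10 were called at 3, 6, 10 or 16 h, and 0, 5, 2 and 40 probe sets in all. They rest as well on the vehicle rats: without vehicle replicate 2 the counts were 2, 6, 6 and 4 at the 4 times, without replicate 3 they were 0, 2, 1 and 0, and without replicate 1 they were 0, 1, 3 and 3. Of the 16 fits that each left out 1 array, all kept Lifr at 6 h and Rpp21 at 10 h, and 15 kept Adss1 at 10 h, Eci3 at 10 h and at 16 h and Rpp21 at 16 h. Rab30 at 16 h was kept in 14, Oaf at 6 h in 13, Adss1 at 16 h in 12, Avpr1a at 3 h and Rpp21 at 6 h in 11, Avpr1a at 10 h in 5 and Rab38 at 10 h in 3.

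Avpr1a was the one gene of the 10 called at 3 h as deposited. It read 3.98, 5.43 and 4.22 in the vehicle rats, 5.83, 6.28 and 5.93 at 3 h, 5.67, 5.53 and 5.65 at 6 h, 6.14, 5.57, 5.39 and 5.66 at 10 h and 4.03, 3.84 and 4.76 at 16 h. All rats at 3 h and 6 h stood above all vehicle rats, and at 16 h the groups overlapped. By limma the difference was 1.47 ± 0.28 (adjusted p = 0.0262) at 3 h and 1.14 ± 0.26 (adjusted p = 0.0382) at 10 h, while at 6 h it was 1.07 ± 0.28 (adjusted p = 0.178). Set directly against 3 h, the 16 h rats were lower by limma, at -1.81 ± 0.28 (adjusted p = 0.000278), and at -1.08 ± 0.20 after quantile normalization (adjusted p = 0.00517, limma). The Avpr1a call at 3 h was lost without any 1 of the 3 h rats, without vehicle replicate 1 or 3 and with the replicate block (adjusted p = 0.0609, limma). Avpr1a was also called at 6 h after quantile normalization (1.17 ± 0.20, adjusted p = 0.0028, limma) and without vehicle replicate 2 (1.52 ± 0.26, adjusted p = 0.00259, limma), and for all RA times under both.

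Lifr had the largest RA difference of the 10. It read -0.17, 0.56 and -1.15 in the vehicle rats, 2.45, 1.81 and 2.53 at 3 h, 5.00, 2.38 and 4.58 at 6 h, 2.19, 0.83, 2.08 and 0.94 at 10 h and 0.26, -2.52 and 1.15 at 16 h. Every rat at 3, 6 and 10 h lay above every vehicle rat, and the 16 h rats spread over and beyond the vehicle range. The 6 h difference was 4.24 ± 0.68 by limma (adjusted p = 0.00139), or 18.9-fold. The second Lifr probe set gave 4.71 ± 0.79 at 6 h (adjusted p = 0.00283, limma). At 3 h the Lifr difference of 2.52 ± 0.68 did not pass (adjusted p = 0.429, limma), though it did with array weights (adjusted p = 0.00797, limma), and 16 h minus 3 h was -2.64 ± 0.68 (adjusted p = 0.0146, limma).

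Oaf, like Lifr, was called at 6 h alone as deposited. Its values were 3.82, 4.58 and 4.58 with vehicle, 5.37, 5.17 and 5.41 at 3 h, 5.55, 5.36 and 5.88 at 6 h, 4.37, 4.84, 4.29 and 4.36 at 10 h and 4.51, 4.16 and 5.16 at 16 h. The 3 h and 6 h rats lay above all vehicle rats, and by 10 h the ranges overlapped. By limma the 6 h difference was 1.27 ± 0.25 (adjusted p = 0.0165), that at 3 h 0.99 ± 0.25 (adjusted p = 0.257) that at 10 h 0.14 ± 0.23 (adjusted p = 0.906) and that at 16 h 0.28 ± 0.25. After quantile normalization Oaf was also called at 3 h, at 0.88 ± 0.17 (adjusted p = 0.0255, limma), and at 16 h, where the difference of 0.89 ± 0.17 (adjusted p = 0.00765, limma) was over 1.5 times that as deposited, and for all RA times (adjusted p = 0.000656, limma). With array weights Oaf was called at 3 h too (adjusted p = 0.0489, limma).

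Rpp21 was called at 6, 10 and 16 h. It read 3.10, 4.62 and 3.24 in the vehicle rats, 4.70, 4.81 and 4.46 at 3 h, 4.88, 5.08 and 5.29 at 6 h, 5.25, 5.31, 5.34 and 5.63 at 10 h and 4.64, 4.68 and 5.58 at 16 h. Vehicle replicate 2 stood 1.45 above the mean of the other vehicle rats, and from 6 h on every RA rat lay above it. The limma differences were 1.43 ± 0.29 at 6 h (adjusted p = 0.0197), 1.73 ± 0.27 at 10 h (adjusted p = 0.0011) and 1.32 ± 0.29 at 16 h (adjusted p = 0.00902). Without vehicle replicate 2 Rpp21 was called at 3 h as well, at 1.49 ± 0.26 (adjusted p = 0.00338, limma). Of 9 other RNase P and MRP subunits tested, 0 were called at 3, 6, 10 or 16 h, and their median difference lay between -0.32 and 0.12.

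Adss1 climbed to 10 h. Its values were 0.77, 2.52 and -0.44 with vehicle, 1.77, 2.22 and 1.96 at 3 h, 2.63, 2.93 and 2.52 at 6 h, 3.38, 3.60, 3.35 and 2.69 at 10 h and 2.03, 2.43 and 3.24 at 16 h. The 6 h and 10 h rats stood above all vehicle rats, while 16 h overlapped with vehicle replicate 2. The limma difference was 2.31 ± 0.42 at 10 h (adjusted p = 0.00585) and 1.62 ± 0.45 at 16 h (adjusted p = 0.0323). At 6 h Adss1 differed by 1.74 ± 0.45 (adjusted p = 0.165, limma), and was called after quantile normalization (adjusted p = 0.0477), with array weights (adjusted p = 0.0151) and without vehicle replicate 2 (2.52 ± 0.40, adjusted p = 0.000878, limma). The second Adss1 probe set was not called, with 1.13 ± 0.42 at 10 h (adjusted p = 0.323, limma) and 1.34 ± 0.45 at 16 h (adjusted p = 0.0723, limma). Of 14 genes of purine nucleotide synthesis tested, 0 were called at 3, 6 or 10 h, and Gart (-3.04 ± 0.77) and Prps1 (-1.03 ± 0.30) fell at 16 h, neither of them after quantile normalization.

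Rab38 was called at 10 h. It read 1.09, 3.54 and 2.41 with vehicle, 2.10, 2.52 and 1.95 at 3 h, 2.73, 3.59 and 2.81 at 6 h, 3.96, 4.24, 3.75 and 4.18 at 10 h and 1.41, 2.56 and 3.36 at 16 h. The 10 h rats alone stood clear of all vehicle rats, by 1.69 ± 0.40 (adjusted p = 0.0496, limma). That call was lost with no filter on low signals and was kept in 3 of the 16 fits that left out 1 array. Without vehicle replicate 2 the difference was 2.29 ± 0.40 (adjusted p = 0.0029, limma).

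Rab30 fell. Its values were 3.83, 2.62 and 3.35 with vehicle, 1.97, 2.56 and 2.42 at 3 h, 2.65, 2.18 and 3.27 at 6 h, 1.57, 1.90, 2.57 and 0.83 at 10 h and 1.85, 0.59 and 2.27 at 16 h. At 3, 10 and 16 h every rat lay below every vehicle rat, though vehicle replicate 2 was close to them. The limma difference was -1.70 ± 0.42 at 16 h (adjusted p = 0.0184) and -1.55 ± 0.40 at 10 h (adjusted p = 0.0776). Without vehicle replicate 2 Rab30 was called at 10 h too, at -1.88 ± 0.44 (adjusted p = 0.0484, limma). The second Rab30 probe set, which followed the first at r = 0.94 over the 47 arrays, was not called. Under quantile normalization Rab30 was no longer called at 16 h or by the F test, at which time the median of all probe sets was -0.39 as deposited and -0.06 after quantile normalization. Of 40 other RAB genes tested, 0 were called at 3, 6 or 10 h and 4 fell at 16 h, among them Rab11b (-1.06 ± 0.31) and Rab5b (-0.96 ± 0.27). None of the 4 was called at 16 h after quantile normalization, under which Rab17 was called higher at 6 h and 10 h.

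Eci3 was called at 10 h and 16 h as deposited. It read 6.24, 7.38 and 6.44 with vehicle, 7.00, 6.82 and 6.72 at 3 h, 7.67, 7.36 and 7.50 at 6 h, 7.87, 7.86, 7.95 and 7.99 at 10 h and 7.60, 7.56 and 7.96 at 16 h. At 10 h and 16 h all rats stood above all vehicle rats, and at 10 h they lay within a narrow band. By limma the difference was 1.23 ± 0.21 at 10 h (adjusted p = 0.00371), 1.02 ± 0.23 at 16 h (adjusted p = 0.0105) and, for 16 h minus 3 h, 0.86 ± 0.23 (adjusted p = 0.0182). At 6 h the Eci3 difference was 0.82 ± 0.23 (adjusted p = 0.252, limma), and it was called after quantile normalization (0.87 ± 0.14, adjusted p = 0.00112, limma), with array weights (adjusted p = 0.0484) and without vehicle replicate 2 (1.17 ± 0.21, adjusted p = 0.00446, limma). Eci3 was called for all RA times without vehicle replicate 2 as well (1.15 ± 0.17, adjusted p = 0.000563, limma), and after quantile normalization. Of 11 other enoyl-CoA isomerases and auxiliary oxidation enzymes, 5 fell at 16 h and 0 rose, with Ehhadh at -1.12 ± 0.25, Hadha at -1.11 ± 0.25 and Decr1 at -1.07 ± 0.23. Of these 5, Decr1 alone was still called at 16 h after quantile normalization. Under it Decr2 was called higher at 10 h, at 16 h and for all RA times, and Eci2, the relative whose signal may be shared with Eci3, at 6 h, at 10 h and for all RA times. As deposited, Eci2 differed by 0.49 ± 0.23 at 6 h and 0.44 ± 0.22 at 10 h, neither of them called.

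Car2 and Stac3, which had the widest diet differences together with Lifr, were not called after RA. A second Car2 probe set correlated with the chosen one at r = 0.74 over the 47 arrays. The vehicle rats here averaged 1.33 for Car2, above the -0.28 of the deficient rats in the diet experiment. Car2 read 1.08, 1.47 and 1.45 with vehicle, 1.18, 1.35 and 2.19 at 3 h, 1.60, 1.26 and 0.62 at 6 h, -0.24, 1.42, 1.51 and 1.27 at 10 h and 1.28, 1.99 and 3.20 at 16 h. The groups overlapped at every time. The 10 h minus vehicle difference was -0.34, with a 95% interval from -1.28 to 0.60, and that at 16 h ran from -0.18 to 1.83. Supplemented minus deficient diet gave 3.01 ± 0.53 as fitted and 2.06 ± 0.44 in run 1 alone. Diet differences chose the gene, and the doses, routes and durations differ. The RA intervals were therefore not tested against them. Of 11 other carbonic anhydrase genes tested, 0 were called at 3, 6 or 10 h, and Car3 (-1.17 ± 0.30) and Car5a (-1.12 ± 0.33) fell at 16 h, neither of them after quantile normalization, under which Car8 was called higher at 10 h.

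Stac3 scattered widely. It read -2.30, 0.66 and -0.12 with vehicle, -0.04, -1.63 and 0.17 at 3 h, -1.31, -3.74 and -2.20 at 6 h, -3.43, -0.21, -2.30 and -3.73 at 10 h and 1.26, -0.85 and -2.06 at 16 h. Rats of one group lay far apart, and the groups overlapped at every time. Its 95% intervals ran from -4.33 to 0.67 at 6 h and from -4.17 to 0.51 at 10 h, which leave room for a sizeable fall. Supplemented minus deficient diet gave 4.23 as fitted and 4.56 ± 0.84 in run 1 alone. As for Car2, diet chose the gene and the doses, routes and durations differ, so no comparison was tested. By the F test the adjusted p was 0.552 for Stac3 and 0.466 for Car2 (limma).

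**Figure D3:**
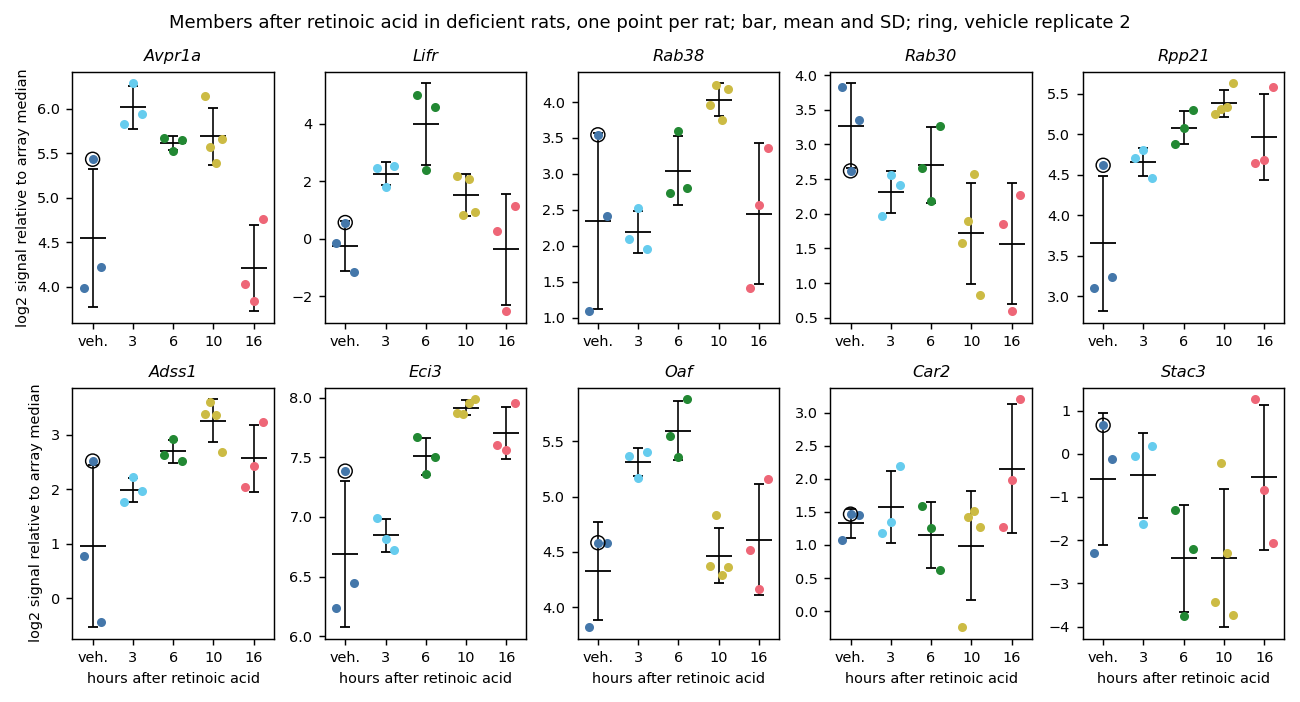
Levels of the 10 genes (y, log2 signal relative to the array median) in vehicle rats and at 3, 6, 10 and 16 h after RA (x), 1 point per rat with the group mean and SD, and a ring on vehicle replicate 2. As deposited, Avpr1a, Lifr and Oaf peak at 3 to 6 h and overlap with vehicle at 16 h, Rpp21, Adss1, Rab38 and Eci3 are highest at 10 h, and Rab30 is lowest at 10 to 16 h.

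The 3 h and 16 h rats were also compared directly, while timing was not tested between genes. Between 3 h and 16 h, Avpr1a and Lifr fell and Eci3 rose as deposited, so 3 of the 10 were called, where 8.70% of all probe sets were called. Of all 28869 probe sets, 2427 fell and 86 rose. The median difference was -0.52 over all genes and 0.10 over the 10 genes. After quantile normalization the Lifr call was lost and Rpp21 was called higher at 16 h than at 3 h (1.01 ± 0.22, adjusted p = 0.0164, limma). Partners of the receptors gave no call at 3, 6 or 10 h. At 16 h, 3 of 10 LIF receptor partners and ligands fell, Stat3 at -1.41 ± 0.34, Il6st (gp130) at -1.06 ± 0.31 and Jak1 at -0.82 ± 0.22. Of 7 genes of V1a signalling, Itpr1 alone fell at 16 h, at -1.26 ± 0.38, and of 3 other vasopressin and oxytocin receptors and 8 genes of the STAC and muscle calcium channel list none was called at any time (limma). After quantile normalization none of these partner genes was called at 16 h.

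Other gene groups moved with the later times. Of 15 core clock genes, 0 were called at 3, 6 or 10 h and 4 fell at 16 h, with Nfil3 at -2.14 ± 0.45, Npas2 at -2.06 ± 0.60 and Bmal1 at -2.03 ± 0.56. Of 11 fasting-response genes, Angptl4 fell at 6 h (-2.25 ± 0.35), Cpt1a (-1.43 ± 0.27) and Pdk4 (-0.86 ± 0.20) at 10 h, and 4 at 16 h, including Igfbp1 (-2.51 ± 0.42). After quantile normalization Nfil3 of the clock genes and Igfbp1 and Pdk4 of the fasting genes still fell at 16 h, clock genes Hlf and Nr1d2 rose at 16 h, and Cry1 rose at 10 h. The summed Kupffer cell markers (8 genes) ran from 5.75 to 6.22 at 16 h against 6.59 to 6.77 with vehicle, and 2 of the 8 fell as deposited and 0 after quantile normalization. The summed stellate cell markers (11 genes) ran from 4.73 to 5.54 against 5.55 to 6.13, with 2 higher and 2 lower as deposited, and 0 higher and 1 lower (Col3a1) after quantile normalization. The hepatocyte markers ran from 12.0 to 12.5 against 11.8 to 12.2, with 1 of the 9 higher and 1 lower as deposited, and 0 higher and 3 lower (Apob, Fga and Fgb) after quantile normalization. The part of any of these in the falls of Rab30, Avpr1a and Lifr by 16 h was not tested. Leaving out 16 h replicates 1 and 2 leaves 1 rat at 16 h, so differences alone are given. Against vehicle they were 1.93 for Rpp21, 2.29 for Adss1, 1.27 for Eci3 and -0.999 for Rab30. For 16 h against 3 h they were -1.26 for Avpr1a, -1.11 for Lifr and 1.11 for Eci3.

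Within 90 min of intravenous RA in rats on a stock diet, none of the 10 genes was called by limma. The counts were 0 at 30, 60 and 90 min, for all times together and by the F test, with 3, 3, 3, 3 and 4 genes at an unadjusted p under 0.05. Among the 22763 probe sets tested, 2034, 2299, 2430, 2359 and 2452 had an unadjusted limma p under 0.05. Over all 22763 probe sets, 0.0879%, 0.387%, 0.505%, 0.290% and 0.549% were called, and after quantile normalization the split went from 50 higher and 38 lower to 63 and 25 at 60 min, from 76 and 39 to 90 and 24 at 90 min and from 56 and 10 to 74 and 3 for all times. The groups did not overlap for 5, 6 and 5 of the 10 genes at 30, 60 and 90 min, where 27.5%, 28.0% and 28.9% of all probe sets did not. RA targets moved on the same arrays: Cyp26a1 rose by 5.43 ± 0.56 at 60 min (adjusted p = 0.000817, limma), Cyp2c22 by 1.28 ± 0.16 at 60 min and Rarb by 1.45 ± 0.18 at 90 min.

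Lifr showed the largest difference here too. It read -0.17 and 1.29 with vehicle, 2.93, 2.59 and -0.40 at 30 min, 3.15, 3.13 and 3.15 at 60 min and -0.25, 2.11 and 1.51 at 90 min. All rats at 60 min lay above both vehicle rats, and those at 30 and 90 min overlapped with them. The 60 min difference was 2.59 ± 0.81, with an adjusted p of 0.263 by limma. Rpp21, the gene called at most times in the time course, read 4.19 and 4.36 with vehicle and 3.95 to 4.93 over the 9 RA rats. Its mean difference was 0.11, with a 95% interval from -0.31 to 0.53.

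Avpr1a, Rab38 and Adss1, called in the time course, averaged below vehicle here. Avpr1a read 4.61 and 4.67 with vehicle, 3.80, 4.21 and 4.48 at 30 min, 4.41, 4.08 and 3.49 at 60 min and 4.61, 3.99 and 4.13 at 90 min. Every RA rat lay below both vehicle rats. Its differences of -0.48 ± 0.25, -0.65 ± 0.25 and -0.40 ± 0.25 were opposite in sign to those at 3 to 10 h in the time course, and none passed (adjusted p from 0.387 to 0.623, limma). Rab38 likewise averaged below vehicle, by -0.84 ± 0.25 at 90 min (adjusted p = 0.214, limma), and Adss1 by -0.69 ± 0.26 at 30 min (adjusted p = 0.47, limma). The experiments differ in diet, dose, route, feeding, anaesthesia and time, so the values stand side by side without a test.

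Oaf and Rab30 came nearest to a call, with an adjusted p of 0.0683 and 0.0721 by the F test (limma). Oaf read 4.56 and 4.84 with vehicle, 4.88, 5.14 and 4.56 at 30 min, 4.93, 5.14 and 4.81 at 60 min and 3.76, 3.84 and 4.42 at 90 min, and the 90 min rats lay below all others. Rab30 read 5.46 and 5.49 with vehicle, 6.02, 5.99 and 5.83 at 30 min, 4.81, 5.66 and 5.29 at 60 min and 4.50, 4.86 and 5.22 at 90 min. It was above vehicle in every rat at 30 min and below in every rat at 90 min. Rab30 was also brighter in these rats than in any rat of the other experiments, whose highest value was 4.40. Under quantile normalization both genes were called by the F test.

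Eci3, Car2 and Stac3 were the remaining genes. Eci3 read 6.14 and 6.32 with vehicle and 6.01 to 6.51 after RA, and its mean difference of 0.08 had a 95% interval from -0.17 to 0.34. Car2 read 1.86 and 2.37 against 1.77 to 2.44, with an interval from -0.46 to 0.40. Stac3 read -1.06 and -0.88 against -0.63 to 0.41, so every RA rat lay above both vehicle rats. At 90 min its 0.84 was the highest difference of the 10 genes. Its mean difference of 0.81 ± 0.38 did not pass (adjusted p = 0.482, limma). Clock and fasting genes moved within the same window: at 60 min Dbp (2.99 ± 0.53) and Per2 (2.24 ± 0.39) rose and Npas2 (-3.36 ± 0.61) fell, and Pdk4 (-2.39 ± 0.31) and Igfbp1 (-2.27 ± 0.40) fell. Their part in the values of the 10 genes was not tested.

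**Figure D4:**
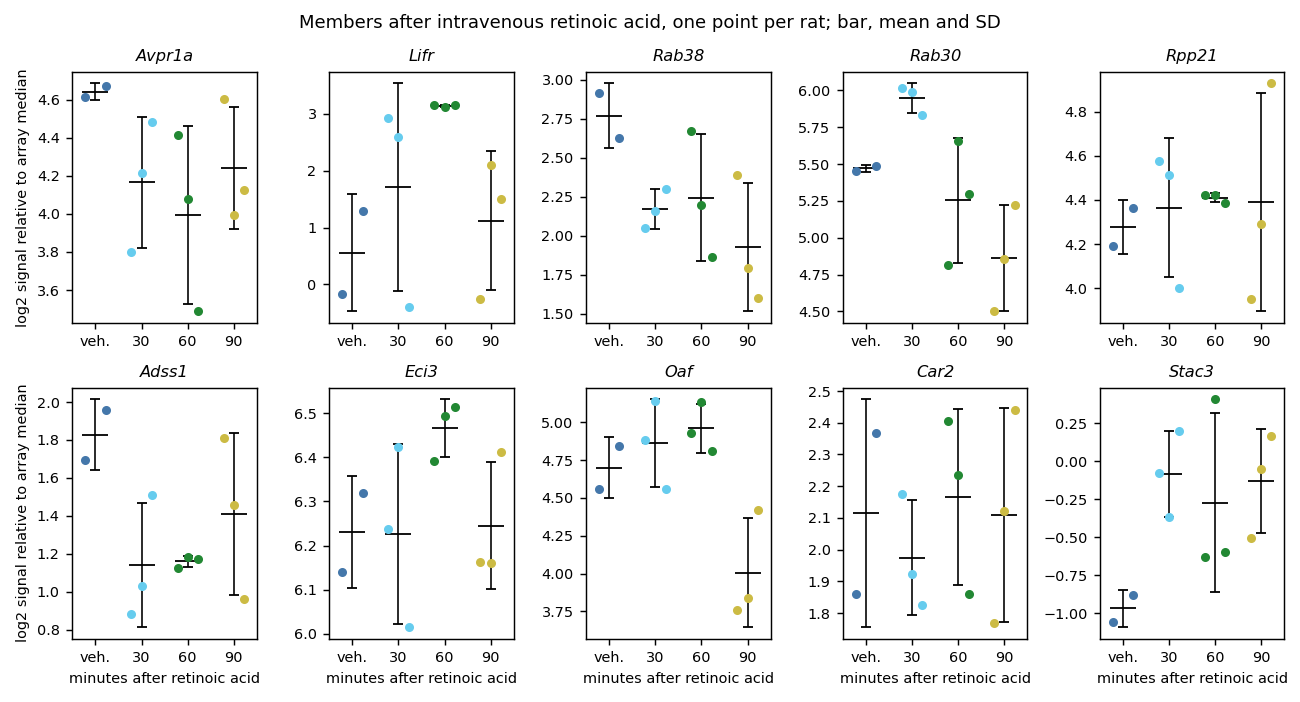
Levels of the 10 genes (y, log2 signal relative to the array median) in vehicle rats and at 30, 60 and 90 min after intravenous RA (x), 1 point per rat with the group mean and SD. Lifr at 60 min (3.13 to 3.15) lies above both vehicle rats, Oaf and Rab30 are lowest at 90 min, and Car2 overlaps with vehicle at every time.

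The genes whose pattern was most like each of the 10 were found by Pearson's r over the 47 arrays after the mean of each experiment was taken off, among 11651 genes. Rpp21 was most like Cyp2c22 (r = 0.94), then Eci3 (r = 0.89) and Adamtsl4 (r = 0.87). Its r with Cyp2c22 was 0.97 over the diet arrays, 0.95 over the time course and 0.12 over the intravenous arrays, where Cyp2c22 rose and Rpp21 was not called. Eci3 was most like Rpp21, Gsto1 (r = 0.88) and Cyp2b3 (r = 0.88). Adss1 was most like Sult1c3 (r = 0.85), Adamtsl4 (r = 0.84) and Cyp2c22 (r = 0.84), and Rab38 like Nqo1 (r = 0.82), Adss1 (r = 0.81) and Rbks (r = 0.79). All of these include vehicle replicate 2.

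The receptors had other neighbours. Avpr1a was most like Pnkd (r = 0.87), Cd82 (r = 0.86) and Litaf (r = 0.86). Lifr was most like Klf15 (r = 0.69), Zscan26 (r = 0.67) and A1bg (r = 0.65), and Oaf like Hyls1 (r = 0.80), Parp9 (r = 0.75) and Lims2 (r = 0.74). Rab30 was most like Cpt1a (r = 0.86), the gate of mitochondrial fatty acid uptake, then Abcb4 (r = 0.74) and Cyp17a1 (r = 0.73). Car2 was most like Ang (r = 0.78), Yeats4 (r = 0.77) and Bend3 (r = 0.75), and for Ang the likeness was 0.89 over the diet arrays and 0.13 over the time course. Stac3 had no close neighbour, with Zfp385b at 0.52, Bcl9l at 0.52 and Mest at 0.51. These correlations are descriptions over arrays that share diets, doses and array-wide scaling.

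**Figure D5:**
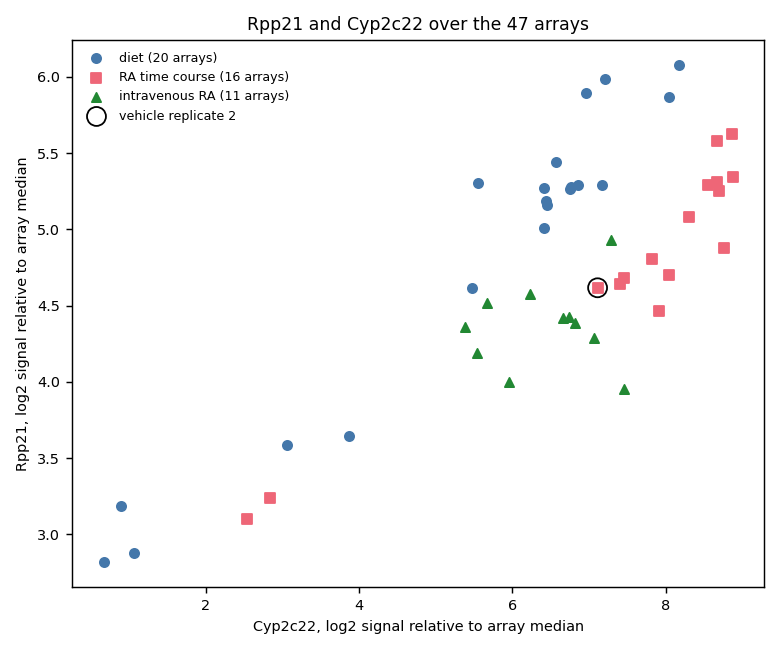
Rpp21 (y) against Cyp2c22 (x), both as log2 signal relative to the array median, 1 point per array over the 47 arrays with a marker for each experiment. Rpp21 rises with Cyp2c22 within the diet arrays (r = 0.97) and within the time course (r = 0.95), but not along one shared band. The 3 h rats (Cyp2c22 7.82 to 8.04) read 4.46 to 4.81 for Rpp21. Supplemented rats at like Cyp2c22 levels (8.04 to 8.18) read 5.87 to 6.08. Vehicle replicate 2 (ringed) sits at 7.11 on the x axis far from the other vehicle rats, and the intravenous arrays run flat (r = 0.12).

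On GRCr8 the genes lie apart except for pairs on the same chromosome. Avpr1a (59999743 to 60003667) and Stac3 (65227151 to 65235884) are on chromosome 7, Lifr (57951787 to 58020357) and Car2 (88462883 to 88478012) on chromosome 2, and Rab38 (151595153 to 151675492) and Rab30 (156216137 to 156310778) on chromosome 1. Adss1 (137500549 to 137523087) is on chromosome 6, Oaf (52491314 to 52509285) on chromosome 8, Eci3 (30127425 to 30149249) on chromosome 17 and Rpp21 (1986225 to 2025308) on chromosome 20. The Rpp21 start whose promoter is printed lies inside that span, which covers several annotated transcripts.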

How the data were processed

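Liver RNA of 47 rats was hybridised to Affymetrix arrays, 1 rat per array. Per the submitters' processing notes, signals came from GCOS (version not given in the sources used here), and the deposited log2 values of 31099 probe sets are centred on each array's median. The log base was inferred from the span of the deposited values. Probe sets were named from the platform annotation (20832 with 1 gene, 436 with several, 9831 with none). Members and gene lists were chosen with earlier results of these data known.

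Each experiment was fitted separately with limma 3.58.1 (R 4.3.3): group means, eBayes with an intensity trend, and Benjamini-Hochberg adjustment over all probe sets tested (27595, 28869 and 22763). Probe sets had to exceed the 40th percentile of their array on 2 arrays or more, and 57 control probe sets were left out. The diet fit held the run of database identifiers as a covariate. Named were all members, RA reference genes, called genes of each partner list (up to 3 per list and contrast by size) and the 3 most alike genes per member; genes named only after quantile normalization were chosen after their values were seen. The linear model was tested on simulated data. Alternatives were quantile normalization, no filter, no trend, array weights, a fold minimum of 1.5, a replicate block, means over probe sets, dim values raised to the 20th percentile, and leaving out arrays. Arrays give no read depth, so their number limits the precision. RefSeq (GRCr8) gave promoters and positions.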

Additional observations from a re-analysis of the deposited data

Results flagged for a closer look

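The 10 genes were looked at in 40 groups of 4 to 7 arrays, and in 2 of these the highest or lowest rat stood apart by Dixon's criterion at its 95% level. Chance gives about 1 such group in 20. Car2 read -0.241 in replicate 1 at 10 h after RA, where the nearest of the other rats read 1.27. Oaf read 4.836 in replicate 2 at 10 h, where the nearest read 4.373.

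The RA response differed between 3 h and 16 h for 3 genes by limma's test of the difference itself. It was lower at 16 h by 1.81 on the log2 scale for Avpr1a (-1.81) and by 2.64 for Lifr (-2.64), and higher for Eci3 (0.86). At 16 h, 2 of the 3 arrays correlated least with the others. Without them, with 1 rat left at 16 h, the differences were -1.26 for Avpr1a, -1.11 for Lifr and 1.11 for Eci3.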

How the results depend on the processing

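Deficient minus adequate and supplemented minus deficient differences kept their sign for all 10 genes under every alternative run. Marginal minus adequate was recomputed within each run alone, where Stac3 read 0.21 in run 1 and -0.58 in run 2 and the other 9 genes kept 1 sign. Of the counts of called genes, those not printed here stayed within 1.5 times, apart from the fit without 16 h replicates 1 and 2. Without the eBayes trend 0 of the 10 genes were called at 3, 6, 10 and 16 h, for all RA times, for 16 h against 3 h and by the F test. Quantile normalization gave 2 at 3 h, 6 at 6 h, 5 for all RA times and 2 by the intravenous F test, and array weights gave 3 at 3 h, 6 at 6 h and 6 for all RA times. Means over probe sets gave 0 at 3 h, 3 at 10 h and 1 for all RA times, and dim values raised to the 20th percentile gave 1 by the intravenous F test. That fit leaves 1 rat at 16 h, so its counts are not given. The causes were not tested.

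Replicate numbers did not pair the samples: same-numbered arrays correlated in their deviations at -0.04 to 0.05 in the time course and -0.03 to 0.02 in the intravenous experiment. With the replicate block 0 genes were called at 3 h and 3 at 10 h. Leaving out 1 array in turn gave 0 to 2 at 3 h, 1 to 6 at 6 h, 1 to 6 at 10 h, 0 to 4 at 16 h, 0 to 4 for all RA times, 1 to 4 for 16 h against 3 h, 6 to 8 by the F test and 0 to 2 by the intravenous F test.

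No called difference turned its sign under any alternative, and the following uncalled ones did. With array weights, the difference became -0.40 for Stac3 at 3 h, -0.014 for Oaf at 10 h, -0.56 for Stac3 at 16 h, -0.13 for Rab38 at 16 h, 0.028 for Eci3 at 30 min and 0.0090 for Car2 at 90 min. With 16 h replicates 1 and 2 left out, the difference became -1.47 for Stac3 at 16 h, 0.21 for Avpr1a at 16 h and 1.40 for Lifr at 16 h. With quantile normalization, the difference became 0.28 for Avpr1a at 16 h, 0.070 for Lifr at 16 h, 0.21 for Stac3 for 16 h against 3 h, 0.0040 for Oaf for 16 h against 3 h, 0.12 for Eci3 at 30 min, 0.11 for Car2 at 90 min, 0.081 for Car2 for all intravenous times, 0.0095 for Rab30 for all intravenous times and 0.080 for Oaf for all intravenous times. With means over probe sets, the difference became 0.18 for Lifr at 16 h, 0.049 for Car2 at 30 min, 0.042 for Car2 at 90 min and 0.11 for Car2 for all intravenous times. With the replicate block, the difference became 0.015 for Car2 at 90 min. Leaving out 1 array in turn, differences ran at 3 h from -0.77 to 0.71 for Stac3, -0.065 to 0.44 for Car2, -0.78 to 0.44 for Rab38 and -0.069 to 0.50 for Eci3. They ran at 6 h from -0.39 to 0.096 for Car2. They ran at 10 h from -0.51 to 0.070 for Car2 and -0.12 to 0.27 for Oaf. They ran at 16 h from -0.86 to 0.80 for Stac3, -0.53 to 0.70 for Rab38, -0.62 to 0.11 for Avpr1a and -0.88 to 0.95 for Lifr. They ran for all RA times from -0.048 to 1.18 for Rab38. They ran for 16 h against 3 h from -0.95 to 0.71 for Stac3 and -0.21 to 0.77 for Rab38. They ran at 30 min from -0.39 to 0.11 for Car2, -0.018 to 0.27 for Rpp21 and -0.10 to 0.10 for Eci3. They ran at 60 min from -0.20 to 0.31 for Car2 and -0.42 to 0.0020 for Rab30. They ran at 90 min from -0.26 to 0.25 for Car2, -0.17 to 1.29 for Lifr, -0.15 to 0.33 for Rpp21 and -0.075 to 0.10 for Eci3. They ran for all intravenous times from -0.29 to 0.22 for Car2, -0.23 to 0.052 for Oaf and -0.0078 to 0.17 for Eci3.

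Quantile normalization of the partner, clock, fasting and cell type marker lists was chosen after seeing the data. The number of arrays limits the precision, and the intravenous vehicle group holds 2.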
